A study of Homo sapiens with 3 samples.

Results

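The MCM helicase and DNA replication genes examined here are a chosen list of 10 genes: MCM2, MCM3, MCM4, MCM5, MCM6, MCM7, PCNA, RRM1, RRM2 and HELLS. HELLS was included because its protein was assayed in the study. Ribosome-protected RNA fragments were sequenced from HEK293T cells, a human line derived from embryonic kidney, 24 h after transient transfection. The 3 cultures received empty pCDNA3.1 vector (vector), a vector expressing FLAG-tagged DDX3X without a mutation (wild-type), or a vector expressing FLAG-tagged DDX3X with the medulloblastoma-associated G325E change (G325E). All 3 cultures, the vector control included, were treated with harringtonine at 2 µg/ml for 90 s and then cycloheximide at 100 µg/ml according to the sample labels, whereas the methods of the study name cycloheximide only. Transient transfection leaves some cells without the construct, and the cells also made DDX3X from their own gene. There was 1 library per construct, so every difference below has no replicate check, and none was tested.

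Each library was represented by a list of peaks, a peak being a stretch of genome with at least a set coverage of footprints. The lists held 11219 peaks for vector, 19920 for wild-type and 15680 for G325E. They hold no read numbers. By the read totals in the study's supplement the libraries differed in depth, with the most non-duplicated mapped reads for wild-type and the fewest for G325E, and scaling to the size of a list does not remove what depth does to which genes reach a peak. A peak was assigned by the RefSeq transcript that annotates it, or otherwise by the gene name in the list. Of 3581 genes with a peak in any list, 9 of the 10 replication genes were among them. Peak numbers in each list follow genome order, and 14.82% of the numbers in the vector list and 13.46% in the wild-type list were skipped, against 0% in the G325E list. The numbers skipped around each replication gene are given with the gene, and 20 of them, in the vector list, lie around MCM6. Of 14 neuronal markers, 3 had peaks in each list (TUBB3, NEFL and NEFM, summing to between 31 and 51 peaks), while RBFOX3, MAP2, SYN1 and DCX had 0, although the labels call the cell type neuronal. Of 12 epithelial or embryonic kidney markers, 1 had peaks with vector (VIM), 5 with wild-type and 3 with G325E, and PAX2, PAX8 and EPCAM had 0 in all lists. Of 8 markers of dividing cells, between 3 and 4 had peaks in each list, and MKI67 and CDK1 had 0. DDX3X itself had 0 peaks with vector, 32 with wild-type and 9 with G325E.

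The 6 MCM proteins form the ring-shaped helicase that is loaded onto replication origins before S phase and unwinds DNA at the fork. PCNA is the sliding clamp that holds DNA polymerases on their template. RRM1 and RRM2 are the large and small subunits of ribonucleotide reductase, which makes deoxyribonucleotides. HELLS is a chromatin remodeller of the SNF2 family that is needed for normal DNA methylation. In ribosome profiling, footprints on the coding sequence come from elongating ribosomes, and harringtonine stalls ribosomes near start codons. DDX3X is an RNA helicase with roles in translation initiation.

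The replication genes had few peaks with empty vector and more with either DDX3X construct. The 10 genes together held 13 of 11219 peaks with vector, which is 11.6 per 10000 listed peaks (exact 95% interval 6.17 to 19.8). They held 50 peaks with wild-type, or 25.1 per 10000 (18.6 to 33.1). They held 52 with G325E, or 33.2 per 10000 (24.8 to 43.5). These intervals cover counting error only, and neighbouring peaks of a covered stretch are not independent, so the true uncertainty is wider. The 13 vector peaks lay in 3 genes (MCM3, MCM5 and RRM2), and 8 of the 13 were in RRM2. With wild-type 9 of the 10 genes had a peak, and with G325E 8 had one. Over all 3581 genes the share with a peak was 56.5% in the vector list, 84.0% in the wild-type list and 64.5% in the G325E list. No mRNA measurement was analysed here, and in a bulk library fewer cells with a transcript, less mRNA per cell and less translation of it cannot be told apart.

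**Figure D1:**
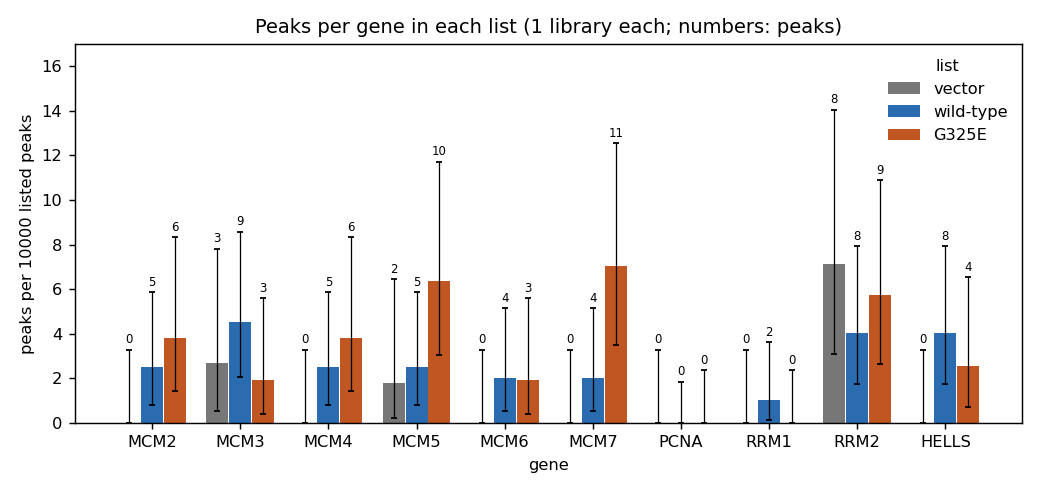
Peaks of each of the 10 genes per 10000 listed peaks (vertical axis) in the vector, wild-type and G325E lists, with exact 95% intervals as error bars and the number of peaks above each bar. PCNA has 0 peaks in every list, MCM7 goes from 0 to 4 to 11, and RRM2 stays at 8, 8 and 9.

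Among the subunits of the MCM ring, MCM2 had its wild-type and G325E peaks at different places. MCM2 (chr3:127317253-127341279, plus strand, GRCh37) had 0 peaks with vector, 5 with wild-type and 6 with G325E. All 5 wild-type peaks lay in exon 13, between codons 672 and 755 of 904. They have PODXL2, a neighbouring gene, as their gene name in the list, but their annotation is exonic in a transcript of MCM2, so by gene name MCM2 would have 0 peaks with wild-type. All 6 G325E peaks lay in exons 3 and 4, between codons 80 and 222. The coding bases under a wild-type peak and those under a G325E peak shared 0 bases. Wild-type peaks covered 8.33% of the coding sequence and G325E peaks 11.4%. Only 1 number was skipped in the vector list between the neighbouring listed peaks on either side of MCM2, and none in the other lists. The windows below show where the longest stretch particular to each list began. Capitals mark bases under a peak of the list named and of no other list, and each window holds 30 bases of the GRCh37 plus strand.
MCM2 wild-type exon 13, chr3:127337971-127338000: CATGCCCAACACgtaTGGCGTGGAGCCCCT
MCM2 G325E exon 4, chr3:127323725-127323754: tcttgcctccccagaCAGCGATGAGGAGGA
The wild-type stretch ran for 129 bases with a GC content of 57.4%, and the G325E stretch for 88 bases with a GC content of 72.7%. In the wild-type window the uncovered bases between capitals are a gap of 3 bases inside a longer covered run, so 2 listed peaks there are parts of a nearly continuous stretch. In the G325E window the last lower case base is the first base of exon 4, and the bases before it are intron.

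MCM3 (chr6:52128812-52149679, minus strand) had 3 peaks with vector, 9 with wild-type and 3 with G325E. The 3 peaks in exons 15 and 16, from codon 691 to about codon 739 of 808, were present in every list. The other 6 wild-type peaks lay in exons 7, 8 and 9 and in introns 9 and 15, and neither other list had a peak there. Peaks covered 5.16% of the coding sequence with vector, 11% with wild-type and 4.79% with G325E. In the wild-type list 1 number was skipped inside the gene, and in the vector list 1 beside it. The exon 16 peak began at the splice junction in all lists, as the window of the minus strand shows, with capitals for bases under a peak in all 3 lists and intron in lower case.
MCM3 exon 16, chr6:52130928-52130957: atcaaccctctgaagTACACACTCCAAAGA

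MCM5 (chr22:35796127-35821424, plus strand) had 2 peaks with vector, 5 with wild-type and 10 with G325E. Exon 14 was covered in all lists, near codons 571 to 611 of 734. Exons 16 and 17, between codons 659 and 726, had 4 peaks with wild-type and none in the other lists. The first exon, intron 1, the 5′ UTR part of exon 2 and codons 11 to 56 had peaks with G325E only, as did 42 bases on the opposite strand upstream of the gene. Although G325E had more peaks than wild-type, its peaks covered less of the coding sequence: 4.68% with vector, 12.6% with wild-type and 9.63% with G325E. In the wild-type list 2 numbers were skipped inside the gene and 3 beside it. In the exon 14 window, capitals again mark bases under a peak in all 3 lists, and the lower case bases are the short gaps that split the run.
MCM5 exon 14, chr22:35815924-35815953: ACCGctaCATCAtcaTGCGGAGCGGGGCCC

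MCM7 (chr7:99689856-99699563, minus strand) had 0 peaks with vector, 4 with wild-type and 11 with G325E. The 4 wild-type peaks lay in exons 5, 6 and 7, between codons 187 and 273 of 719, and each overlapped a G325E peak. The other 7 G325E peaks lay in exons 11 and 12, between codons 401 and 549, where neither other list had a peak. These 7 peaks have MIR106B as their gene name in the list, a microRNA gene hosted by MCM7, but their annotation is exonic in a transcript of MCM7. Coding coverage was 0% with vector, 6.35% with wild-type and 18% with G325E. No number was skipped at MCM7 in any list. The window shows the start of the longest stretch covered with G325E only, in capitals, on the minus strand.
MCM7 exon 11, chr7:99693638-99693667: gctgcattgatgagtTCGACAAGATGGCTG

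MCM6 (chr2:136597196-136634013, minus strand) had 0 peaks with vector, 4 with wild-type and 3 with G325E. All of them lay in exon 1 or just upstream of the transcript, and the last covered codon was 36 of 821. In the vector list 20 numbers were skipped between the neighbouring peaks around MCM6, so an absent vector peak there cannot be told apart from a skipped one. MCM4 (chr8:48872745-48890720, plus strand) had 0 peaks with vector, 5 with wild-type and 6 with G325E. These lay near the gene's first annotated base, in intron 2 and in canonical exon 3, and none lay past codon 59 of 863. Of the 6 with G325E, 1 lay on the opposite strand, upstream of the first annotated base of MCM4. Its gene name in the list is PRKDC, and it was counted for MCM4 by its annotation. In the wild-type list 1 number was skipped beside the gene. A further 6 wild-type and 4 G325E peaks inside MCM4 carry MCM4 as gene name but the RefSeq transcript of PRKDC, a gene that starts beside it on the opposite strand, and were counted for PRKDC. The vector list had 0 such peaks.

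**Figure D2:**
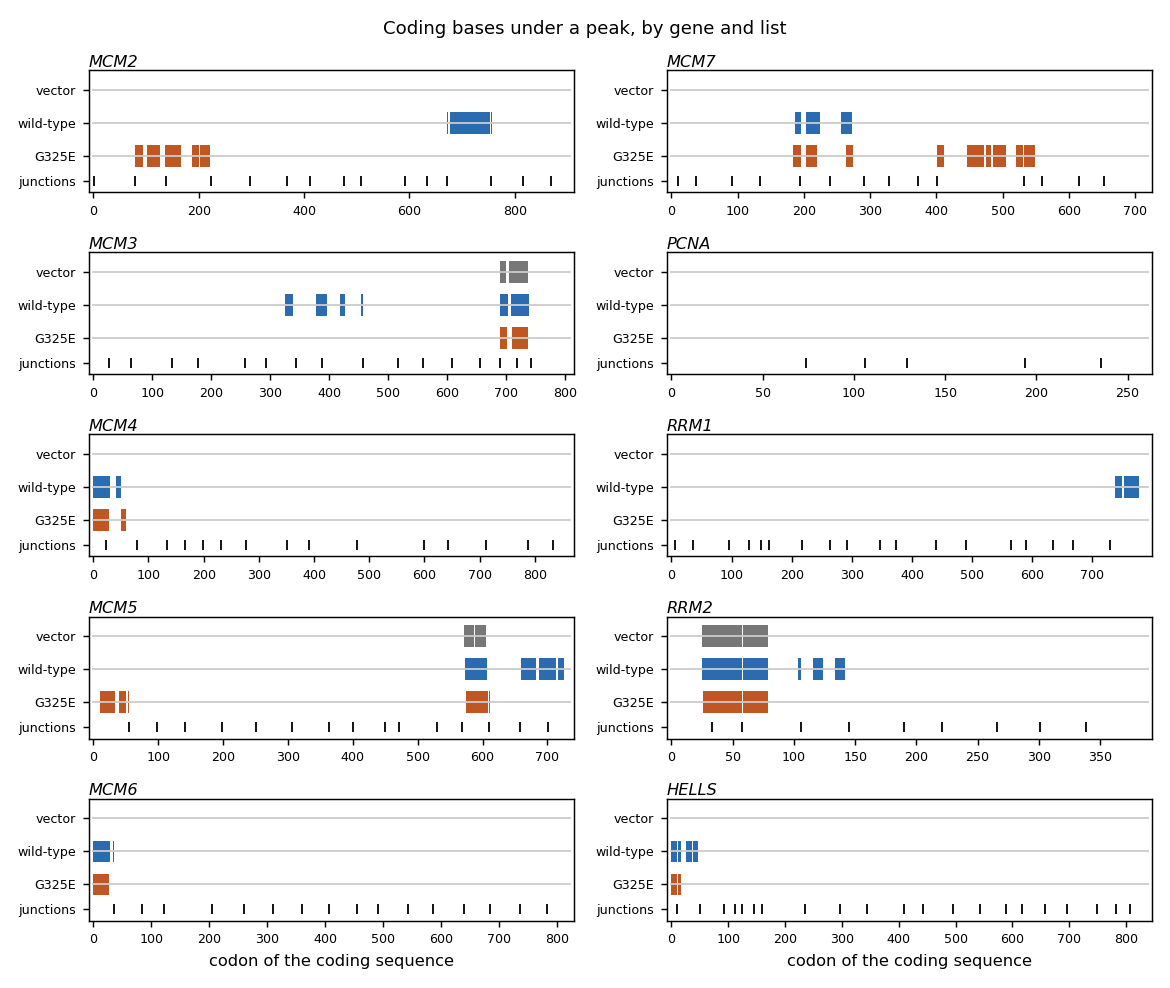
Coding bases under a peak of the gene's strand, along the codons of each gene's coding sequence (horizontal axes), in the vector, wild-type and G325E lists, with ticks for exon junctions. The MCM2 blocks of the wild-type and G325E lists lie at opposite ends, the right-hand MCM7 blocks are G325E only, and the MCM3, MCM5 and RRM2 blocks found with vector recur in the other lists.

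PCNA (chr20:5095599-5107272, minus strand), the sliding clamp, had 0 peaks in each list, and no number was skipped around it. Its 261 codons thus held no listed peak, which does not show that it was not translated. The study also reviewed peaks by eye, so absence from a list does not show that coverage stayed below the threshold. RRM1 (chr11:4115937-4160162, plus strand) had 0 peaks with vector, 2 with wild-type and 0 with G325E, and no number was skipped. Both wild-type peaks lay in the last exon, exon 19, between codons 738 and 778 of 792. RRM1 had the lowest GC content of any wild-type member peaks, with a mean of 41.9%. The window shows the start of its longer peak in capitals, after an uncovered gap.
RRM1 exon 19, chr11:4159476-4159505: ATCCAgttcactctaAATAAGGAGAAGCTA

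RRM2 (chr2:10260825-10351851, plus strand) had nearly the same peak number in all lists, at 8 with vector, 8 with wild-type and 9 with G325E. Scaled to the size of the lists this was 7.13, 4.02 and 5.74 per 10000. Exons 1, 2 and 3 were covered in all lists from codon 26 or 27 to codon 79 of 389, and exon 4 had 2 peaks with wild-type only, reaching codon 142. Coding coverage was 13.7% with vector, 18.4% with wild-type and 13.5% with G325E. Of the 8 vector peaks 5 lay off the canonical mature transcript: 2 upstream of it, 2 in intron 3 and 1 on the opposite strand. The upstream and intron peaks on the plus strand lay in exons of other annotated RRM2 transcripts. The opposite-strand peak was 57 to 63 bases long, recurred in all 3 lists and was centred 35 to 38 bases past the first base of the start codon. The window shows the exon 2 stretch common to the lists, which ran for 93 bases with a GC content of 75.3%. Its capitals begin 1 base inside the exon. Over all genes 1697, 3025 and 1300 listed starts (vector, wild-type and G325E) lay 1 base inside an annotated exon start, and 59, 84 and 85 lay on one.
RRM2 exon 2, chr2:10263096-10263125: gcgtctccccgcagcCGCCGGCCCTGAGCG

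HELLS (chr10:96305086-96373662, plus strand) had 0 peaks with vector, 8 with wild-type and 4 with G325E, and no number was skipped. Its peaks were confined to exons 1 and 2 and the start of intron 1, and the last covered codon was 47 of 838 with wild-type and 16 with G325E. Of the 8 wild-type peaks 4 met a peak of the G325E list, and 3 of the 4 with G325E met a wild-type one. The 2 wild-type peaks between codons 27 and 47 had no G325E counterpart. Peaks covered 4.06% of the coding sequence with wild-type and 1.87% with G325E. Like MCM4 and MCM6, HELLS thus had all its footprint peaks at its 5′ end.

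**Figure D3:**
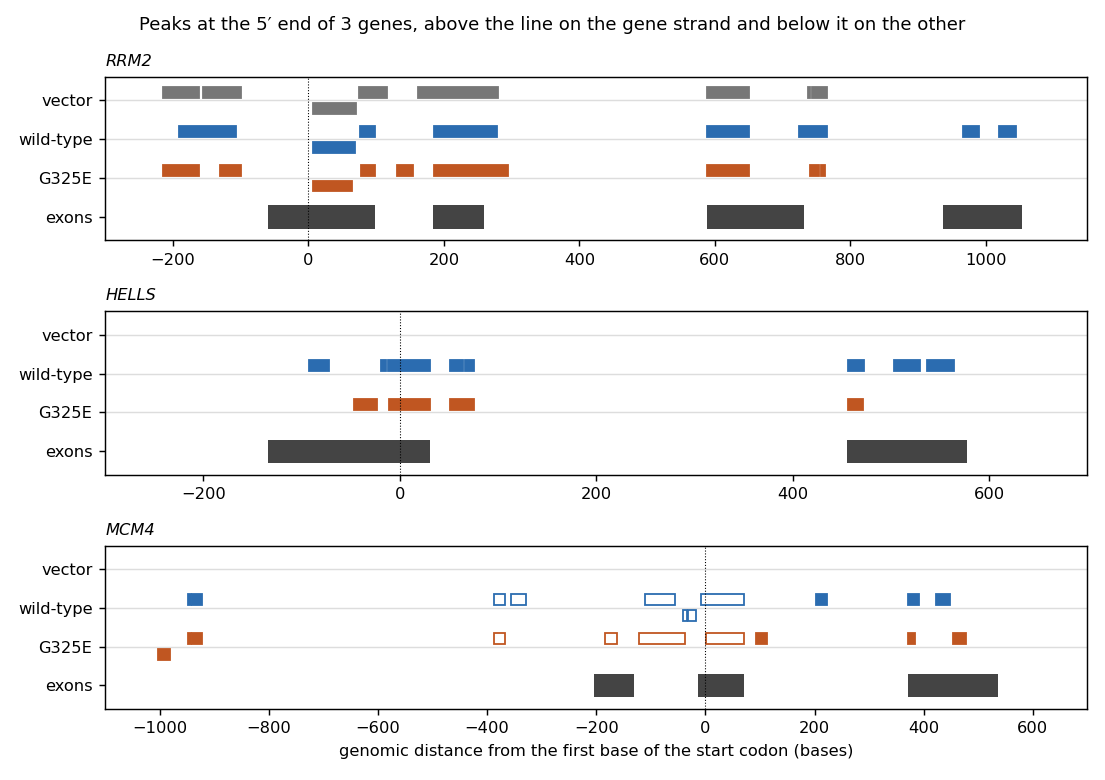
Peaks near the start codon of RRM2, HELLS and MCM4 against genomic distance from the first base of the start codon in bases (dotted line), by list, on the gene's strand (above each line) and the opposite strand (below), with canonical exons as dark blocks. Open boxes at MCM4 are peaks counted for PRKDC. The opposite-strand RRM2 peak recurs in all 3 lists, and HELLS and MCM4 have no vector peak.

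Peaks within 15 nt of the start codon of the canonical transcript were found for 0 of 3 members with a peak on the mature transcript in the vector list, 3 of 9 in the wild-type list (HELLS, MCM4 and MCM6) and 4 of 8 in the G325E list (the same 3 and MCM5). Over all genes the shares were 42.0%, 40.3% and 59.1%. For HELLS and MCM6 the peak ran over the start codon with both constructs, and for MCM5 a peak of 7 bases ended on the base before it with G325E only. At MCM4 the peak over the start codon is one of those counted for PRKDC, and without them 2 of the members had such a peak with wild-type and 3 with G325E. The windows show these start codons in capitals within the spliced transcript, with 12 bases before and 15 after. The bases before the MCM5 start codon cross the junction of exons 1 and 2.
HELLS start codon, chr10:96305679-96305681, plus strand: gagtgtccaggcATGccagcggaacggccc
MCM6 start codon, chr2:136633933-136633935, minus strand: cactaagcaaatATGgacctcgcggcggca
MCM5 start codon, chr22:35796432-35796434, plus strand: agaggcgcagtcATGtcgggattcgacgat

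To ask how G325E differed from wild-type DDX3X, peak numbers were scaled to the size of each list and compared for genes with a peak in both lists and over 3 in at least 1 of them. Of the 8 members that could be compared, MCM7 was 3.49-fold higher with G325E (interval 1.04 to 15) and MCM5 2.54-fold higher (0.791 to 9.47). MCM3 was at 0.423 of its wild-type value (0.0737 to 1.70). These 3 passed the 2-fold size used as the call. Over all 1549 genes compared, 21.2% were called higher and 11.2% lower, so 2 and 1 of 8 members is close to the background. When all genes were split into 4 classes of coding GC content, the background in the members' own class was 18.7% called higher for MCM5 and MCM7, and 13.8% called lower for MCM3. The other members lay between 0.635 (HELLS) and 1.52 (MCM2 and MCM4), with RRM2 at 1.43 and MCM6 at 0.953. The median log2 ratio of the 8 members was 0.56, against 0.35 for all genes. The members' peaks summed were 1.32-fold higher with G325E (interval 0.879 to 1.99), an interval that includes no difference.

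Counting bases under peaks in place of peaks, MCM7 was 3.24-fold higher with G325E and MCM3 at 0.436, while MCM5 was at 1.25 and lost its call. When peaks within 10 bp were merged, or when peaks under 20 bp were left out, MCM5 also lost its call and MCM2 gained one. By gene name alone MCM7 was not called, since its exon 11 and 12 peaks then went to MIR106B, and MCM2 could not be compared, since its wild-type peaks then went to PODXL2. MCM3 was not called lower when the lists were scaled by their 5′ UTR, coding and 3′ UTR peaks, nor when only peaks on canonical exons were counted.

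To ask how either construct differed from the empty vector, the same scaling was used. With G325E against vector 2 members could be compared: MCM5 was 3.58-fold higher (interval 0.762 to 33.6) and was called, and RRM2 was at 0.805 (0.276 to 2.40). By covered bases MCM5 was at 1.95 and lost this call. The background was 12.0% called higher and 19.0% lower over 1190 genes. Taking 3 peaks as the limit that a count of 0 allows in the vector list, MCM7 was at least 2.62-fold higher with G325E. Its lower limit of 3.50 per 10000 was above 3.29, the upper exact limit for 0 vector peaks. MCM2 and MCM4 were at 1.43-fold with G325E, but their lower limit of 1.40 per 10000 was below 3.29, so they are given no direction. With wild-type against vector 3 members could be compared and none was called: MCM3 was at 1.69, MCM5 at 1.41 and RRM2 at 0.563. MCM3 and MCM5 were both called higher when the lists were scaled by their median gene ratio or cut to the same number of longest peaks. The background there was 7.34% higher and 20.8% lower over 1512 genes. Against the same 3 peaks in place of 0, HELLS was at 1.5-fold with wild-type. Its lower limit of 1.73 per 10000 was below 3.29, so no direction is given. For the remaining members without vector peaks, 3 peaks in place of 0 allow no direction either.

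Of the 8 members with over 3 wild-type peaks, 5 had none with vector (HELLS, MCM2, MCM4, MCM6 and MCM7), against 31% of all such genes. In the vector list 20 numbers were skipped around MCM6 and 1 around MCM2, so an absent peak there cannot be told apart from a skipped one. Of the 6 members with over 3 G325E peaks, 4 had none with vector (HELLS, MCM2, MCM4 and MCM7), against 38.0% of all such genes. The members' summed peaks were 2.86-fold higher with G325E than with vector (interval 1.54 to 5.73) and 2.17-fold higher with wild-type than with vector (1.16 to 4.35). These sums rest largely on members with 0 vector peaks. Among genes with peaks in both lists the median log2 ratios were -0.26 and -0.47 over all genes, against 0.76 over 2 members and 0.49 over 3 members, with RRM2 below 1-fold in both. Both comparisons share the vector library. No member with over 3 peaks in the wild-type list lacked a G325E peak (0 of 8, background 34.2%), and none with over 3 in the G325E list lacked a wild-type peak (0 of 6, background 22.2%). Without RRM2 the sums on the log2 scale moved from 1.52 to 2.62 for G325E and from 1.12 to 2.24 for wild-type.

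Over all genes the G325E list held a larger share of peaks at 5′ ends than the other lists. The share of member peaks annotated as 5′ UTR or promoter-TSS was 15.4% with vector (2 of 13, exact interval 1.92 to 45.4), 16.0% with wild-type (8 of 50, 7.17 to 29.1) and 23.1% with G325E (12 of 52, 12.5 to 36.8). For all other genes it was 28.1%, 26.3% and 43.4%. The G325E value of the other genes lies above the members' interval. Both vector peaks of this class were in RRM2. The class also takes in peaks on the opposite strand and peaks upstream of the canonical transcript. On the gene's strand only, the member shares were 16.7% with vector, 14.3% with wild-type and 18.4% with G325E, which was not computed for other genes. Peaks off the canonical mature transcript made up 38.5% of member peaks with vector, 22.0% with wild-type and 26.9% with G325E, and of these 5, 11 and 14 peaks 4, 6 and 8 were centred in exons of other annotated transcripts of the same gene. Intron peaks were 15.4%, 12% and 11.5% of member peaks.

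**Figure D4:**
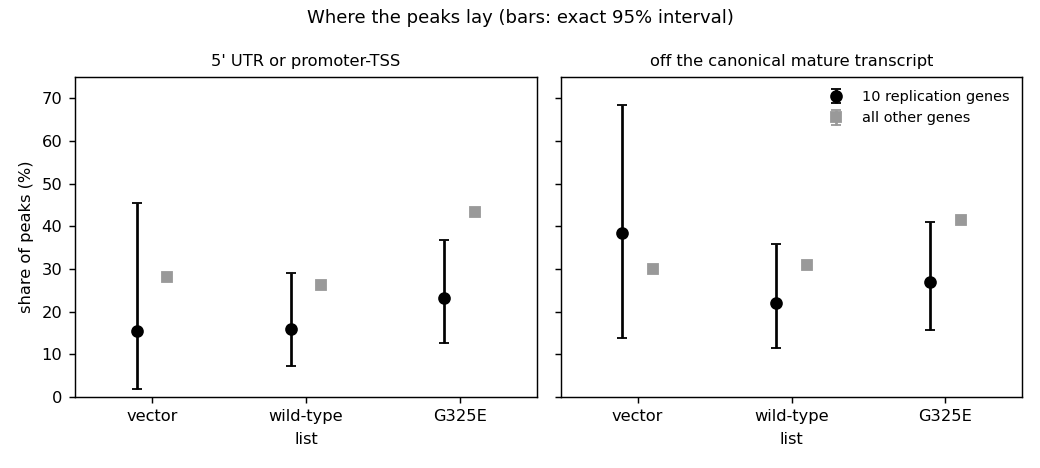
Share of peaks in percent (vertical axis) that were 5′ UTR or promoter-TSS (left) or lay off the canonical mature transcript (right), for the 10 replication genes (circles) and all other genes (squares), in the vector, wild-type and G325E lists, with exact 95% intervals. The 5′ share of the replication genes with G325E is 23.1%, against 43.4% for other genes.

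Within the coding sequence the mean position of member peaks, from 0 at the start codon to 1 at the stop codon, was 0.578 ± 0.378 with vector (SD over 8 peaks), 0.484 ± 0.362 with wild-type (36 peaks) and 0.375 ± 0.324 with G325E (34 peaks). For other genes it was 0.496, 0.504 and 0.401. The spread within each list was far larger than the differences between lists. By member, the mean position went from 0.781 with wild-type to 0.165 with G325E for MCM2 and from 0.922 to 0.433 for MCM5. RRM2 (0.207 and 0.128), HELLS (0.0266 and 0.00955) and MCM6 (0.0264 and 0.0142) were also nearer the start codon with G325E, by less than 0.1. MCM7 (0.300 and 0.544) and MCM3 (0.649 and 0.883) were farther from it, and MCM4 (0.0413 and 0.0464) differed little. Coding coverage counts every peak on the gene's strand and mature transcript, whichever gene it was assigned to. Of all 21387 coding bases of the members, 1.81% were under a peak with vector, 7.21% with wild-type and 6.63% with G325E. Without the MCM4 peaks counted for PRKDC the latter values were 6.88% and 6.31%. The wild-type and G325E peaks shared 681 coding bases, which is 44.2% of the wild-type and 48.0% of the G325E bases. Of the 388 bases covered with vector, 95.4% were also covered with wild-type and 91.8% with G325E.

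Nearly every vector peak of the members recurred in the other lists. All 13 shared at least 1 base, on the same strand, with a peak of the wild-type list, and 12 did so with a peak of the G325E list. For other genes these shares were 75% and 46.4%. In the other direction members lay below other genes. A vector peak was met by 20% of wild-type and 25% of G325E member peaks, against 40.8% and 34.3% for other genes. Of the 50 wild-type member peaks 48% met a G325E peak, and of the 52 G325E member peaks 50% met one of the wild-type list, against 33.6% and 45.7% for other genes. MCM2 had no shared peak in either direction, whereas all 3 MCM6 peaks with G325E and all 4 MCM7 peaks with wild-type were shared.

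Most member peaks were richer in GC than the gene's own coding sequence. The GC content of 31 bases at the middle of a peak was above that of the coding sequence for 10 of 13 member peaks with vector, 41 of 50 with wild-type and 46 of 52 with G325E. These windows are genomic and include promoter-TSS, intron and opposite-strand peaks. The same count was not made for other genes, so it is not shown to be particular to the members. RRM1, at 43.1%, had wild-type peaks averaging 41.9%. HELLS, with a coding GC content of 38.5%, had peaks averaging 66.9% with wild-type and 70.2% with G325E. MCM6, at 46.2%, had peaks averaging 75% and 82.8%. MCM3, at 52.8%, had peaks averaging 51.6%, 57.0% and 54.8% with vector, wild-type and G325E. Over coding peaks of the members, mean GC content was 61.3% ± 10.6 with vector, 59.5% ± 10.1 with wild-type and 64.9% ± 8.80 with G325E (SD over peaks). For other genes it was 58.7%, 58.1% and 66.9%, so the G325E list was GC-rich as a whole. The part of GC content in the peak numbers was not tested.

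**Figure D5:**
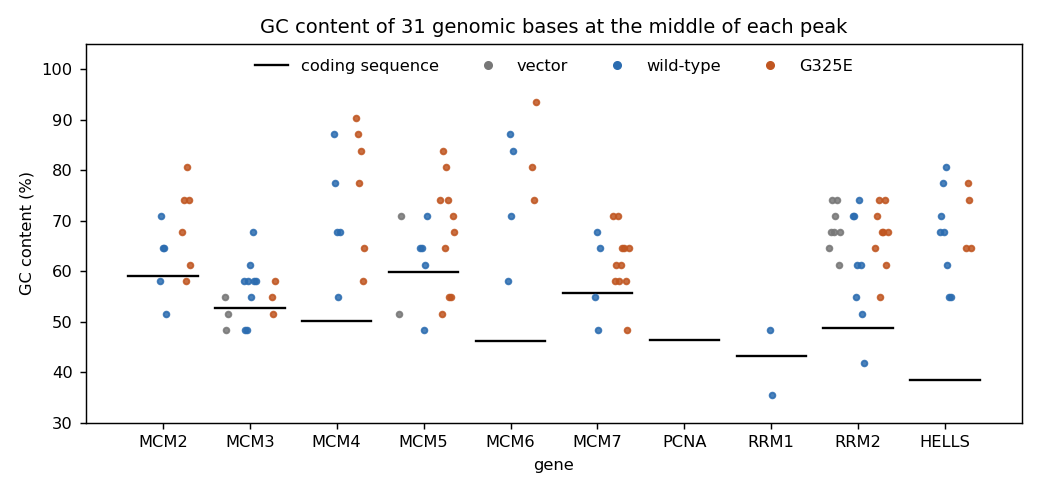
GC content in percent of the 31 genomic bases at the middle of each peak (points, by list) and of each gene's coding sequence (black lines). The HELLS and MCM6 peaks all lie above their coding sequence lines at 38.5% and 46.2%, while the MCM3 points lie on both sides of theirs at 52.8%.

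A list of 75 other replication genes had fewer scaled peaks with G325E than in the other lists. Of these, 32 had a peak in any list. They held 103 peaks with vector (91.8 per 10000), 222 with wild-type (111 per 10000) and 91 with G325E (58.0 per 10000). With G325E against wild-type, 11 could be compared, of which 0 were called higher and 3 lower, with a median log2 ratio of -0.08. With G325E against vector, 0 of 7 were higher and 2 lower, and with wild-type against vector 3 of 13 were higher and 1 lower. The 3 called higher were CDC45 and RFC4 (1 peak with vector and 4 with wild-type each) and RPA2 (1 and 8). Each of these 3 calls thus rests on 1 vector peak. The backgrounds are those given above. The origin licensing factor CDT1 had the most peaks, at 18, 35 and 26 with vector, wild-type and G325E, and did not move by 2-fold. MCMBP, which binds MCM subunits, had 7, 7 and 6, and POLE3, a small subunit of polymerase epsilon, had 7 in each list.

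Among genes acting behind the fork, the histone chaperone subunit SSRP1 had 20, 16 and 7 peaks and the histone chaperone NASP had 15, 20 and 5. Both were called lower with G325E against vector, at 0.25 and 0.239. NASP was also called lower with G325E against wild-type, at 0.318, and SSRP1 with wild-type against vector, at 0.451. The flap endonuclease FEN1 had 12, 11 and 0 peaks and the GINS subunit GINS2 had 6, 6 and 0. POLD1, the catalytic subunit of polymerase delta, had 0, 13 and 5 and was called lower with G325E against wild-type, at 0.489. The topoisomerase TOP2A had 0, 16 and 0. DTYMK, a thymidylate kinase, had 6, 9 and 5. FEN1, GINS2 and TOP2A had no peak with G325E. Other listed genes with over 3 wild-type peaks had none either: RNASEH2A, RPA2, TIMELESS, CHAF1A, DNMT1, SUPT16H, TOP1 and TOP2B. Genes with 0 peaks with G325E are left out of the G325E comparisons above. Of the 75 listed genes, 28 had a peak with wild-type and 18 with G325E. Over all genes with over 3 peaks in the wild-type list, 34.2% had none with G325E. RRM1 also had none, but it had only 2 peaks with wild-type.

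By the distribution of scaled peaks over the 3 lists, the members summed were divided 0.166 to vector, 0.359 to wild-type and 0.475 to G325E. The 5 genes nearest to this, among 725 genes with at least 20 peaks, were SGTA and SNORD37 (each with 3, 11 and 11 peaks), HSPA1L and TST (each with 3, 10 and 10) and SF1 (4, 17 and 19). The sum of absolute differences in these shares was 0.0272 for SGTA and 0.0512 for SF1. The likeness is over 3 lists only.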

How the data were processed

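Ribosome-protected fragments were sequenced from 1 HEK293T library per construct. According to the methods and labels, the authors trimmed adapters (Cutadapt), aligned reads with BWA 0.5.5 to hg19 and RefSeq transcripts, removed duplicates, called peaks by coverage, reviewed them by eye and annotated them with HOMER (version not given in the sources used here). The deposited lists give peak positions and annotation, not reads. Although the stated minimum was 10 bp, 1319, 2259 and 1692 peaks (vector, wild-type, G325E) were shorter, and 163, 272 and 236 of no length were set to 1 base.

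Peaks were assigned to genes as described, and placed on GENCODE v44lift37 canonical transcripts (GRCh37, the sequence of hg19) with Python 3.11.15 and pandas 2.3.3. Intervals are exact binomial (scipy 1.17.1). A call was a 2-fold difference in peaks per 10000, without a p-value. The 2-fold call was tested on simulated peak numbers. These were drawn independently, with a planted change well above 2-fold, in genes expected to have more vector peaks than most members had. The simulation therefore does not show how the call behaves at the peak numbers of the members. Members, lists and named genes (all members, the 10 pathway genes with most peaks, DDX3X and the 5 genes of most like distribution) were chosen with earlier results of these data known. Leaving out a replicate was not possible with 1 library per construct. Alternatives are described in the closing section.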

Additional observations from a re-analysis of the deposited data

Results flagged for a closer look

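The peaks inside MCM4 that were counted for PRKDC were left out of the peak numbers and folds, though they enter the coding coverage and the start codon counts. There were 6 in the wild-type list, or 3.01 per 10000 listed peaks, which is above the 2.67 per 10000 that 3 peaks would be in the vector list, taken as the limit for a count of 0. It is not above 3.29 per 10000, the upper exact 95% limit for that count. The 4 in the G325E list, or 2.55 per 10000, were below that limit. Of the 6 wild-type peaks 4 lay on the strand of MCM4 and 2 on that of PRKDC. Counting those on the MCM4 strand for MCM4 left the members' summed log2 ratio of G325E to wild-type at 0.40.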

How the results depend on the processing

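Of 165 values recomputed under an alternative, 143 stayed within the counting interval of the reported value (counts within 1.5 times, positions within 1 SD) and 22 moved. A turn of direction was scored only for the 36 summed ratios, of which 0 turned. The rule for positions was wide, and all 18 of them stayed. The summed log2 ratio of G325E to wild-type ranged from 0.06 to 0.77, the lowest with scaling by the median gene ratio. Without RRM2 (chosen after seeing the data) it was 2.62 for G325E and 2.24 for wild-type against vector, the upper ends of those ranges. The lower ends were 0.92 and 0.75, by covered bases. Covered bases, strand, the PRKDC peaks and moved starts were also added after seeing the data.

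Calls with G325E against wild-type numbered 1 higher by gene name and by covered bases, and 0 lower on canonical exons and with transcript-class scaling but 2 lower with median scaling. With G325E against vector 0 were higher by covered bases. With wild-type against vector 1 was higher after merging, and 2 each with the longest peaks and with median scaling. The 5′ UTR class alone was 0% of transcript peaks with vector and with wild-type and 2.86% with G325E. The canonical 5′ UTR, with the MCM4 peaks counted for PRKDC, held 0% with vector, 7.5% with wild-type and 12.5% with G325E. Without RRM2 the vector 5′ share was 0%. The overlap of vector with G325E peaks was 100% with starts 1 base to the left and without RRM2. The overlap of wild-type with vector peaks was 34.6% for the longest peaks and 9.52% without RRM2, and that of G325E with vector peaks 11.6% without RRM2. The causes were not tested. No paired analysis was possible because no result comes from a test and there was 1 library per construct. The lists carry no read numbers, so a gene below the peak threshold cannot be told apart from one without footprints.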
